A study of Mus musculus with 28 samples.

Results

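The Rab genes encode small GTPases that give each membrane of the vesicle traffic its identity. They were taken as every gene of the array whose symbol was Rab followed by a number and, for some, a letter, measured by a probe set that GEO's platform annotation gave 1 symbol. This rule named 59 genes. Of these, 41 lay above a log2 level of 5 on 3 or more of the 28 arrays and were tested, among 10452 such genes of 19938 in all. Where a gene had several probe sets, the one with the highest mean over all arrays stood for it. All 41 would also have passed without the arrays of the drug group that stands apart below (Hyd/HCTZ), so none entered only through that group.

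The arrays held RNA of primary dendritic cells from the spleens of mice 3 months old. Wild-type mice were C57BL6/J, and the knockout mice lacked NOX2 (GP91 Phox, encoded by Cybb), which makes superoxide in phagocytes. Wild-type groups were vehicle (7 arrays), angiotensin II, or Ang II (4), Ang II with 2-hydroxybenzylamine, or 2-HOBA, a scavenger of reactive lipid aldehydes (4), and Ang II with hydralazine and hydrochlorothiazide, written Hyd/HCTZ, a vasodilator and a diuretic (6). Knockout groups were vehicle (3) and Ang II (4). The titles of these 4 knockout arrays read Ang I while their descriptions read Ang II, and the descriptions were followed. The series title spoke of hypertension, and sample titles called both vehicle groups Sham, while the design text had cells treated after isolation. Whether mice or cells received the agents therefore cannot be told from the sources used here, nor what limits the groups as a model. Replicates were called biological, with no animal or pool named, so p-values measure the spread between these arrays, which may in part be technical.

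A Rab is active on a membrane when it carries GTP and then binds effectors that tether, move or fuse vesicles. Exchange factors load the GTP, GTPase-activating proteins end the signal, and escort and dissociation-inhibitor proteins hold the prenylated Rab in the cytosol. Dendritic cells depend on these routes to take up antigen, to mature phagosomes and lysosomes, and to carry MHC molecules and the NOX2 oxidase to the phagosome and the surface. The 41 tested genes comprised 7 of 7 early endosome Rabs, 6 of 10 recycling Rabs, 9 of 12 Rabs of late endosomes, lysosomes and autophagy, 11 of 12 Rabs of the endoplasmic reticulum (ER) and Golgi, 5 of 12 exocytic Rabs and 3 of 6 others.

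Some facts of the arrays touch every result. Cybb ranged from 6.41 to 7.18 in the 7 knockout arrays, while 20 of 21 wild-type arrays gave 8.35 to 9.75. The array labelled wild-type vehicle replicate 2 measured a Cybb level of 6.34, like the knockout. Its Stx8 level was 6.61, like the other wild-type arrays (5.56 to 6.90) and unlike the knockout arrays (3.02 to 3.84). Its interquartile range of 1.92 was the lowest of all arrays (2.43 or more on the others). What sets this array apart was not tested, and the values named from comparisons with wild-type vehicle are given with and without it. For 6617 probe sets without a gene name, a principal component analysis gave a first axis with 27.7% of the variance. Cuts at gaps of 13.3 and 30.4 in its scores gave 3 array sets. The gap of 25.3 beside wild-type vehicle replicate 2 was not cut, so that array was counted in the first set. This set held every knockout array, replicates 1 to 3 of wild-type vehicle and the first 2 replicates of wild-type Ang II. The second held the other vehicle and Ang II arrays with the 4 2-HOBA arrays, and the third the 6 Hyd/HCTZ arrays alone. Array set and Hyd/HCTZ therefore cannot be told apart. All 5 shared dendritic cell markers averaged above 5 in every group. Type 1 dendritic cell markers had a mean level of 8.27 to 8.60 per Hyd/HCTZ array and 6.20 to 6.96 per Ang II array, and all 6 were called higher. B cell markers had a mean level of 5.81 to 7.12 and 8.17 to 9.26 in the same order, and all 6 were called lower. Calls went up for 3 of 5 shared dendritic cell, 3 of 5 type 2 and 3 of 5 plasmacytoid dendritic cell markers. They also went up for 3 of 6 red pulp macrophage and 2 of 2 monocyte markers. Calls went down for 3 of 3 T cell, 3 of 4 NK cell, 5 of 5 erythroid, 4 of 5 neutrophil and 1 of 4 platelet markers. Of all tested genes 23.7% were called higher and 25.0% lower in the same comparison. The part of these cell types in the Rab results was not tested, and fewer cells of a type and less RNA per cell cannot be told apart in such bulk samples.

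The widest differences among Rab genes separated Hyd/HCTZ from the other groups. Against Ang II alone, 17 of 41 Rab genes were higher and 3 were lower in the Hyd/HCTZ group. The genes that rose most were Rab7b of late endosomes, Rab32 of lysosome-related organelles, Rab11a of recycling endosomes, Rab43 of the Golgi and Rab5b of early endosomes. No exocytic Rab was called in this fit. A gene was called at a limma adjusted p (Benjamini-Hochberg over the 10452 tested genes) below 0.05. Because the median tested gene was itself 0.32 higher in the Hyd/HCTZ group on the log2 scale, each difference between these groups was measured relative to that median, and a value of 1 is a 2-fold difference beyond it. Much of the array differed between these groups: 48.6% of all tested genes were called, 23.7% higher and 25.0% lower. The called share of the Rab genes, 48.8%, was close to that background, and by direction 41.5% of Rab genes were higher and 7.32% lower. Their median relative difference was 0.24, against 0 for all tested genes. Without the correction for the median, 23 of 41 Rab genes were called, 21 higher and 2 lower, beside 52.7% of all genes, of which 4261 were higher and 1242 lower. Against genes of like mean level, chosen as an alternative after the data were seen, 17 of 41 were called, beside 43.9% of all genes; 14 were higher, and the 3 lower were Rab8a, Rab30 and Rab40c. Against the 2 Ang II arrays of the first array set alone 19 Rab genes and 46.5% of all genes were called, and against the 2 of the second set 13 Rab genes and 25.1%. All 6 Hyd/HCTZ arrays lay above all 4 Ang II arrays in 21 of 41 Rab genes, or 51.2%, against 34.4% of all tested genes, and below them in 1, or 2.44%, against 9.998%. In 10 of 41, or 24.4%, they lay above all 22 other arrays of the series, as in 20.2% of all tested genes; these were Rab7b, Rab32, Rab38, Rab29, Rab24, Rab11a, Rab11b, Rab43, Rab1b and Rab22a. Over all 6 groups, limma's F test called 23 of 41 Rab genes and 53.4% of all tested genes. On the deposited levels the Hyd/HCTZ mean was the highest of the 6 in 34 of 41 Rab genes and the lowest in 3. The same count over all tested genes is not given here. Since the median tested gene was itself 0.32 higher than with Ang II, the count is no result about Rab genes. With the Hyd/HCTZ arrays left out, the F test over the other 5 groups called 0 Rab genes and 5 genes in all, and 2 Rab genes had an unadjusted p under 0.05.

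**Figure D1:**
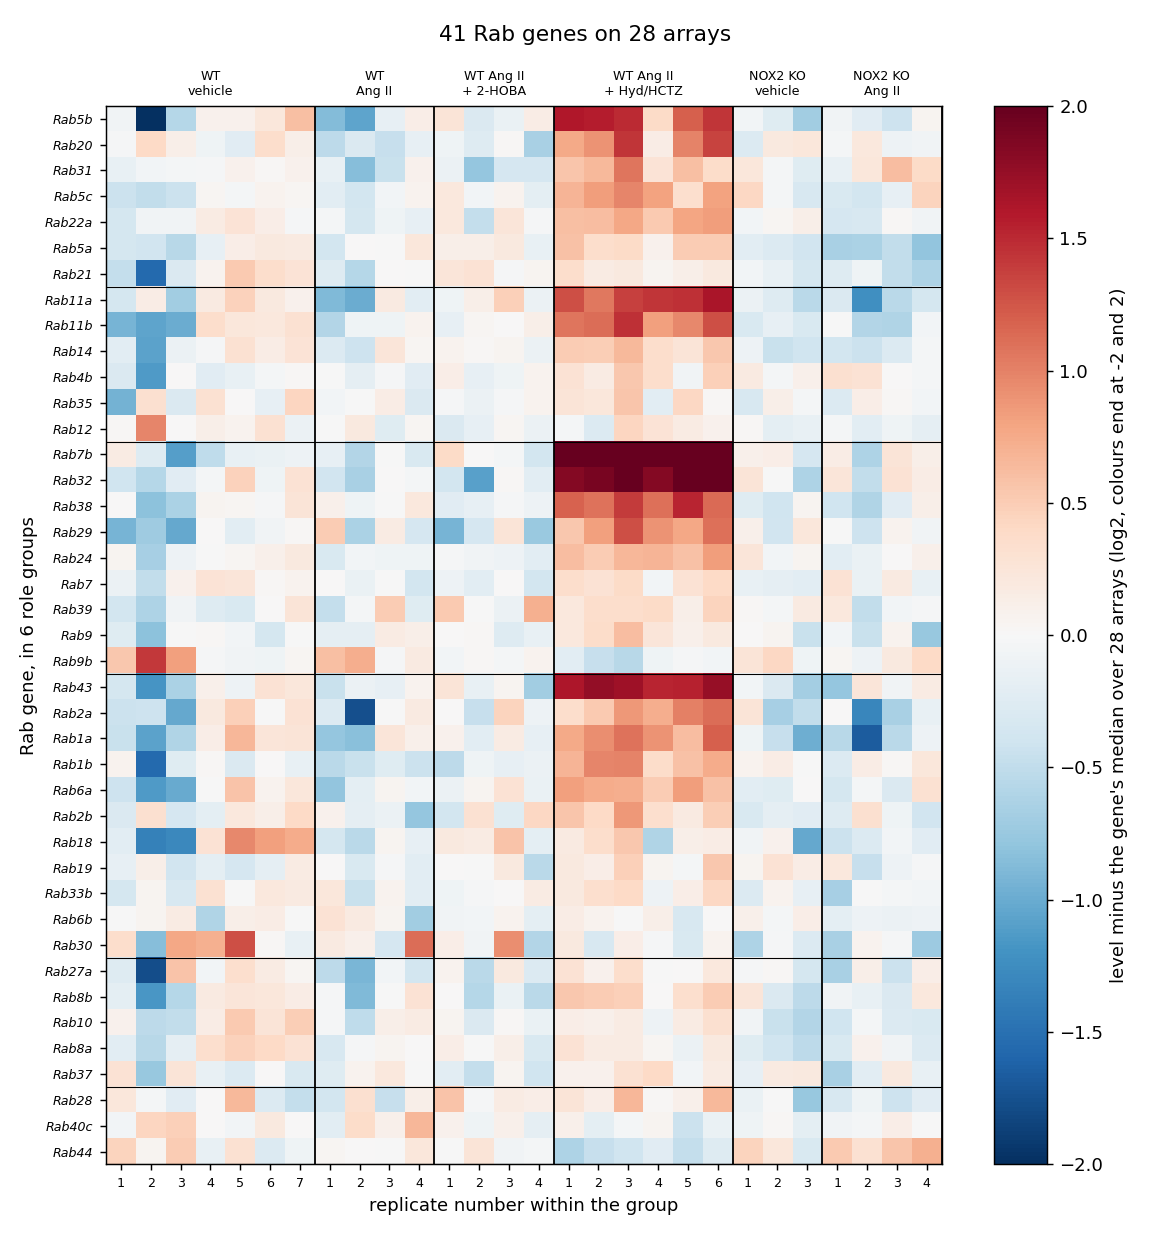
Level of each of the 41 tested Rab genes (rows, in 6 role groups) on each of the 28 arrays (columns), as log2 level minus the gene's median over all arrays; colours end at -2 and 2. The 6 Hyd/HCTZ columns are red for Rab7b, Rab32, Rab43 and Rab11a, and the column of wild-type vehicle replicate 2 stands apart from its group in many rows.

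**Figure D2:**
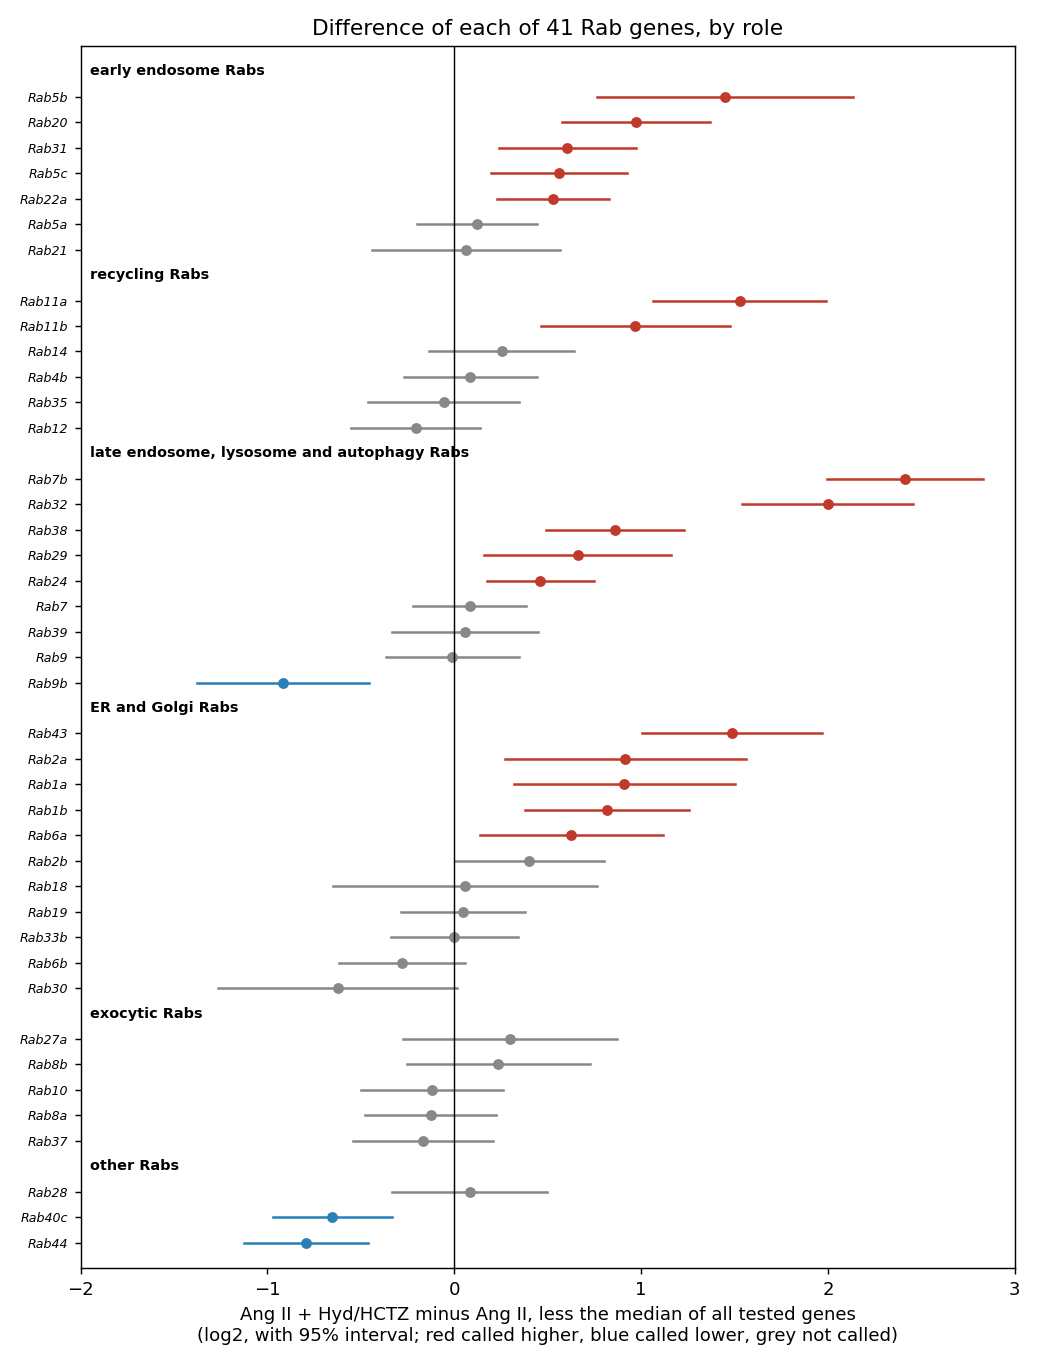
Hyd/HCTZ with Ang II minus Ang II for each of 41 Rab genes, relative to the median of all tested genes (x axis, log2), with limma's 95% interval and 1 row per gene by role. Red marks 17 genes called higher, blue 3 called lower and grey 21 not called; all 5 exocytic Rabs are grey.

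Of the early endosome Rabs, 5 of 7 were higher with Hyd/HCTZ and 0 were lower, with a median relative difference of 0.56. Of all tested genes 23.7% were higher and 25.0% lower. Of the 3 Rab5 genes, which direct fusion of early endosomes, 2 were called. Rab5b levels were 4.86, 4.68, 5.57 and 5.86 on the Ang II arrays and 6.12 to 7.33 with a median of 7.19 on the Hyd/HCTZ arrays. The lowest Hyd/HCTZ array, replicate 4, still lay above every Ang II array. The relative difference was 1.45 (SE 0.34; adjusted p 0.000859), and against the Ang II arrays of the second array set alone it was 1.05 with the call lost (adjusted p 0.0641). Rab5c levels were 7.28, 7.14, 7.45 and 7.58 with Ang II and 7.84 to 8.47 with a median of 8.31 with Hyd/HCTZ, again with no overlap, and the relative difference was 0.56 (SE 0.18; adjusted p 0.0106). This call was lost against genes of like level (adjusted p 0.103) and against the Ang II arrays of the second array set alone (0.48, adjusted p 0.119). Rab5a levels were 6.08, 6.47, 6.44 and 6.69 with Ang II and 6.54 to 7.04 with a median of 6.90 with Hyd/HCTZ, the groups overlapped, and the relative difference was 0.12 with a 95% interval of -0.20 to 0.44 (adjusted p 0.543). Rab5a was not called.

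Of the other 4 early endosome Rabs, 3 were called. Rab22a, which sorts endosomal cargo and takes part in MHC class I traffic of dendritic cells, measured 5.47, 5.14, 5.42 and 5.33 on the Ang II arrays and 6.02 to 6.34 with a median of 6.19 on the Hyd/HCTZ arrays. All 6 Hyd/HCTZ values lay above those of all 22 other arrays, and the relative difference was 0.53 (SE 0.15; adjusted p 0.00418). Rab20, a Rab of maturing phagosomes, measured 4.59, 4.83, 4.64 and 4.94 with Ang II and 5.26 to 6.54 with a median of 6.05 with Hyd/HCTZ. Since its Ang II mean was below 5, its rise is given as at least 0.72, with 5 in place of that mean (adjusted p 0.000184). Rab31, which works between the trans-Golgi network and endosomes, rose by 0.61 (SE 0.18; adjusted p 0.00652), and by 0.52 with the call lost (adjusted p 0.0758) against the Ang II arrays of the second array set. Rab21, known for integrin traffic, measured 7.44 to 8.02 and 8.06 to 8.36 in the same order, and its relative difference was 0.06 with a 95% interval of -0.44 to 0.57.

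**Figure D3:**
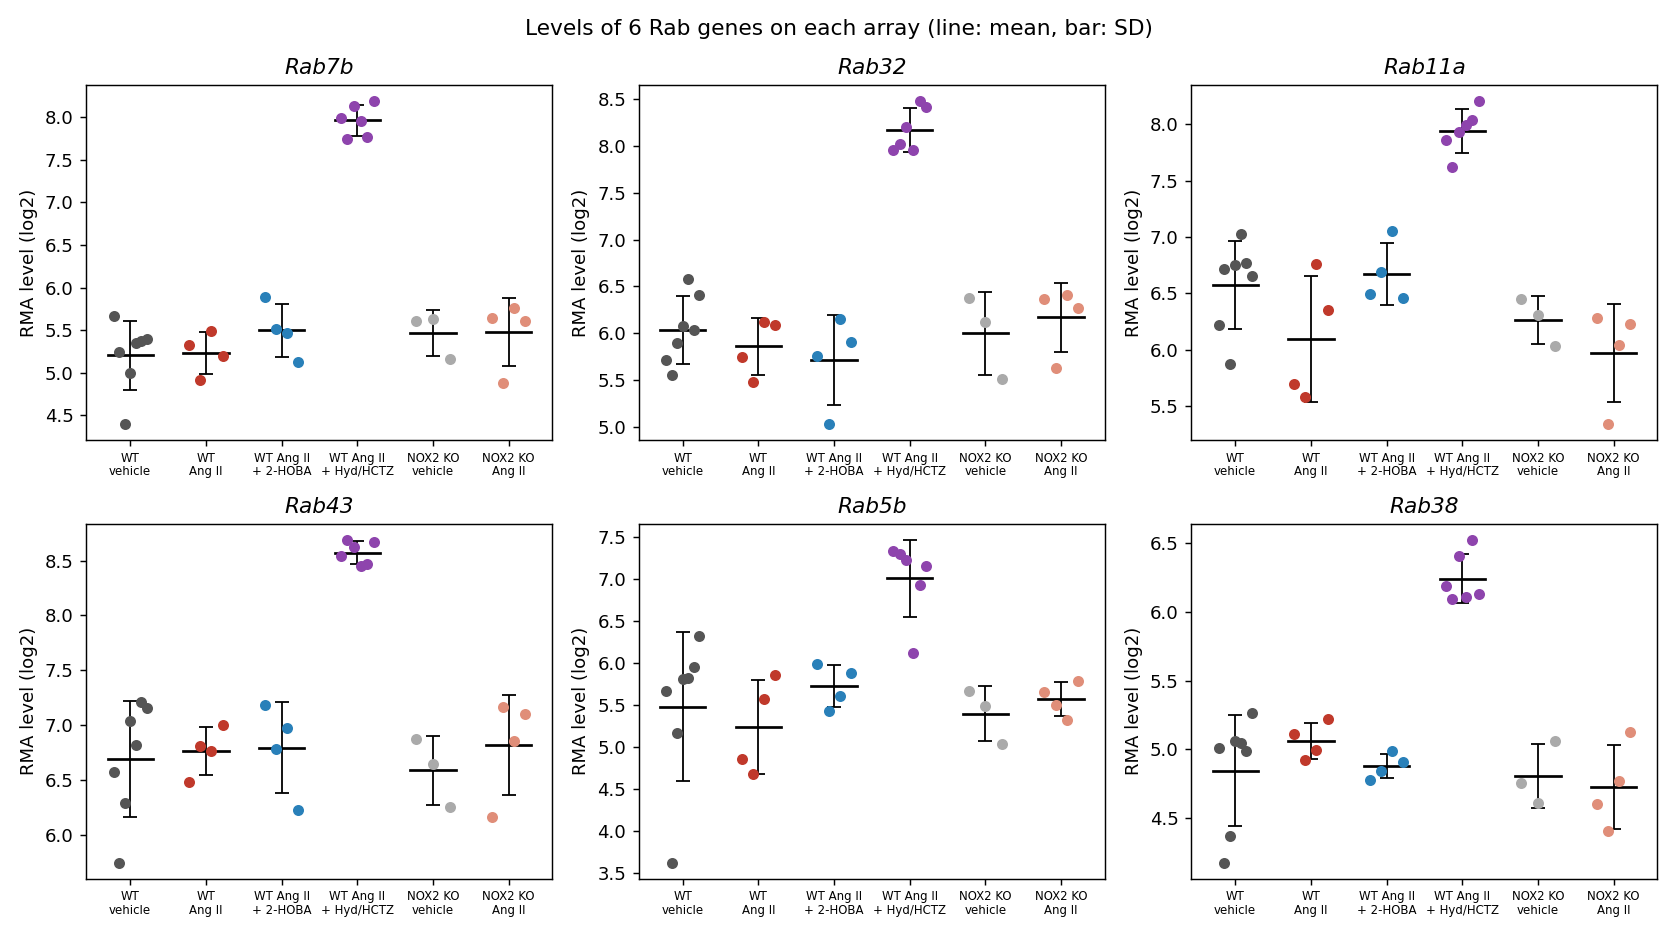
RMA level (y axis, log2) of 6 Rab genes on each array by group; points are arrays, the line is the group mean and the bar its SD. For Rab7b, Rab32, Rab11a, Rab43 and Rab38 the 6 Hyd/HCTZ arrays lie above all 22 others, while for Rab5b 1 wild-type vehicle array lies above the lowest Hyd/HCTZ array.

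Among recycling Rabs, 2 of 6 were higher and 0 were lower, beside 23.7% and 25.0% of all tested genes. Rab11a, which returns cargo from the perinuclear recycling compartment and holds MHC class I there in dendritic cells, measured 5.69, 5.58, 6.76 and 6.35 on the Ang II arrays and 7.62 to 8.21 with a median of 7.96 on the Hyd/HCTZ arrays. The 6 Hyd/HCTZ values were above every other array of the series. Its relative difference was 1.53 (SE 0.23; adjusted p 4.93e-06). Rab11b, its close relative, measured 5.95, 6.45, 6.45 and 6.61 with Ang II and 7.36 to 8.002 with a median of 7.63 with Hyd/HCTZ, with a relative difference of 0.97 (SE 0.25; adjusted p 0.00204). In the vehicle group Rab11b itself fell into separate levels by array set, 5.60, 5.49 and 5.55 on replicates 1 to 3 and 6.89, 6.76, 6.74 and 6.84 on replicates 4 to 7.

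Other recycling Rabs were not called. Rab14, which links endosomes with the Golgi, measured 7.75, 7.62, 8.26 and 8.07 with Ang II and 8.29 to 8.68 with a median of 8.53 with Hyd/HCTZ. The groups did not overlap as deposited, yet the relative difference was 0.25 with a 95% interval of -0.14 to 0.64. Rab35, a Rab of fast recycling, measured 5.54, 5.59, 5.75 and 5.31 and 5.39 to 6.15 with a median of 5.84 in that order, and its relative difference was -0.06 (95% interval -0.46 to 0.35). Rab4b, also of fast recycling, differed by 0.09 and Rab12 by -0.21, with intervals that include 0. Rab4a did not pass the filter, with a highest value of 4.62 over all arrays.

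Late endosome, lysosome and autophagy Rabs held the 2 largest rises of the family. In this class 5 of 9 were higher and 1 lower, beside 23.7% and 25.0% of all tested genes. Rab7b, which carries cargo from late endosomes to the trans-Golgi network, measured 5.33, 4.91, 5.49 and 5.20 on the Ang II arrays. On the Hyd/HCTZ arrays it measured 7.75 to 8.19 with a median of 7.98. The 22 arrays of the other groups reached at most 5.89. Its relative difference was 2.42 (SE 0.20; adjusted p 1.00e-09), or 5.33-fold. Rab32, which directs proteins to melanosomes and other lysosome-related organelles and acts at phagosomes, measured 5.74, 5.48, 6.12 and 6.08 with Ang II and 7.95 to 8.48 with a median of 8.11 with Hyd/HCTZ. Again no array of another group reached the lowest Hyd/HCTZ value, and the relative difference was 2.00 (SE 0.22; adjusted p 9.43e-08), or 3.99-fold. Rab38, its paralogue of the same organelles, measured 5.11, 4.93, 5.00 and 5.22 and 6.09 to 6.52 with a median of 6.16 in that order. The relative difference of Rab38 was 0.86 (SE 0.18; adjusted p 0.000328). In the same comparison 48.6% of all tested genes were called and the marker lists given above shifted. Mean levels of the type 1, type 2 and plasmacytoid dendritic cell, monocyte and red pulp macrophage lists rose, and that of the B cell list fell. Within these rising lists Ly6d (plasmacytoid, 8.33 to 7.92) and F13a1 (monocyte, 4.07 to 3.31) fell. A link of the 3 Rab genes to these lists was not tested.

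Smaller calls in this class were Rab29, which acts with the kinase LRRK2 at stressed lysosomes, at 0.66 (SE 0.25; adjusted p 0.0277), and Rab24, a Rab of autophagosomes, at 0.46 (SE 0.14; adjusted p 0.00832). The call of Rab29 was also lost when Ang II replicate 2 (0.50; adjusted p 0.125), Ang II replicate 4, Hyd/HCTZ replicate 3 or Hyd/HCTZ replicate 6 was left out; for the last 3 the differences were 0.54, 0.61 and 0.62, with adjusted p-values of 0.102, 0.0541 and 0.0514. Under quantile normalization neither kept its call, with 0.56 for Rab29 (adjusted p 0.0617) and 0.27 for Rab24 (adjusted p 0.0557). Nor did either against genes of like level (adjusted p 0.0594 and 0.136) or against the Ang II arrays of the first array set alone (0.136 and 0.0527). Against those of the second set alone Rab29 differed by 0.74 and was not called (adjusted p 0.0668). Rab7, the general Rab of late endosomes and lysosomes, measured 8.66, 8.52, 8.66 and 8.30 with Ang II and 8.60 to 9.05 with a median of 8.98 with Hyd/HCTZ. The groups overlapped, and the relative difference was 0.08 (95% interval -0.22 to 0.39). Rab9, which returns mannose 6-phosphate receptors to the Golgi, measured 5.88, 5.88, 6.23 and 6.17 and 6.16 to 6.67 with a median of 6.28, with a relative difference of -0.01 (95% interval -0.37 to 0.35). Rab39 differed by 0.06 and was not called. The 1 lower gene was Rab9b, a dim gene that measured 4.97, 5.08, 4.33 and 4.54 with Ang II and 3.81 to 4.34 with a median of 4.22 with Hyd/HCTZ. Rab9b overlapped between the groups, its deposited difference was -0.60 and the relative one -0.92 (SE 0.23, adjusted p 0.00150). The call was lost under quantile normalization (adjusted p 0.113), without a filter (-0.45, adjusted p 0.116) and against genes of like level (-0.40, adjusted p 0.147). It was also lost against the Ang II arrays of the second array set alone (-0.55, adjusted p 0.149). On the Ang II arrays Rab9b also split by array set, with the 2 higher values in the first.

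In the ER and Golgi class, 5 of 11 were higher and 0 were lower, beside 23.7% and 25.0% of all tested genes. Rab43, a Golgi Rab that type 1 dendritic cells need for cross-presentation, measured 6.48, 6.82, 6.77 and 7.004 on the Ang II arrays and 8.45 to 8.69 with a median of 8.58 on the Hyd/HCTZ arrays. All 6 Hyd/HCTZ values were above those of the other 22 arrays, which reached 7.21. Its relative difference was 1.49 (SE 0.24; adjusted p 1.17e-05), or 2.81-fold. Rab1a and Rab1b, which carry vesicles from the ER to the Golgi, both rose. Rab1a measured 7.44, 7.39, 8.46 and 8.32 with Ang II and 8.83 to 9.41 with a median of 9.13 with Hyd/HCTZ, a relative difference of 0.91 (SE 0.29; adjusted p 0.0108). For Rab1b the relative difference was 0.82 (SE 0.21; adjusted p 0.00249). Ang II replicates 1 and 2 were the low arrays of Rab1a, and against replicates 3 and 4 alone, those of the other array set, its call was lost (0.49; adjusted p 0.308). Its adjusted p was also 0.0515 without Ang II replicate 2.

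Rab2a, which works between the Golgi and the ER, measured 7.83, 6.34, 8.08 and 8.27 with Ang II and 8.45 to 9.22 with a median of 8.89 with Hyd/HCTZ. Replicate 2 was the low Ang II array, and without it the relative difference fell from 0.92 (SE 0.32; adjusted p 0.0177) to 0.51 (adjusted p 0.160). Rab6a, a Rab of retrograde Golgi traffic, measured 5.08, 5.68, 5.92 and 5.81 and 6.37 to 6.70 with a median of 6.601, with a relative difference of 0.63 (SE 0.24; adjusted p 0.0318). Without Ang II replicate 1, its low array, Rab6a differed by 0.47 and was not called (adjusted p 0.145), nor was it without Hyd/HCTZ replicate 5 (adjusted p 0.0586). Against the Ang II arrays of the second array set alone Rab6a differed by 0.45 (adjusted p 0.270) and Rab2a by 0.44 (adjusted p 0.358). Neither was called there. Rab6a also lost its call against genes of like level (adjusted p 0.0771) and with the replicate number as a block (adjusted p 0.0779). Rab2b, Rab18, Rab19, Rab33b, Rab6b and Rab30 were not called (against genes of like level Rab2b was called higher and Rab30 lower, at 0.66 and -0.78), with relative differences from -0.62 in Rab30, a Golgi Rab, to 0.40 in Rab2b. The interval of Rab18, known from lipid droplets and the ER, was the widest of these, -0.65 to 0.77. The Ang II mean of Rab2b was 4.70, below 5, so the size of its difference is uncertain.

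Of the exocytic Rabs 0 of 5 were called, beside 48.6% of all tested genes, and their median relative difference was -0.12. Rab8a, which carries Golgi vesicles to the surface, measured 8.41, 8.70, 8.78 and 8.72 with Ang II and 8.61 to 9.02 with a median of 8.88 with Hyd/HCTZ. Its relative difference was -0.13 (95% interval -0.48 to 0.22), but against genes of like level it was -0.43 and called lower (adjusted p 0.0445). Rab10, of the same route, differed by -0.12 (95% interval -0.50 to 0.26) and by -0.43 against genes of like level (adjusted p 0.0615), Rab8b by 0.24 (-0.26 to 0.73) and Rab37 by -0.17 (-0.54 to 0.21). Rab27a, which docks secretory lysosomes and delivers NOX2 to dendritic cell phagosomes, measured 5.48, 5.10, 5.95 and 5.64 and 6.00 to 6.35 with a median of 6.15, with a relative difference of 0.30 (95% interval -0.28 to 0.87). All 5 intervals lay below 1. Rab27b did not pass the filter and reached 3.73, and the regulated-secretion genes Rab3a, Rab3b and Rab3c also stayed below 5. Rab3d passed 5 on 1 array, at 5.52.

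Of the Rabs with other roles 3 passed the filter, and 2 of them were lower with Hyd/HCTZ, as were 25.0% of all tested genes. Rab44 measured 4.63, 4.59, 4.58 and 4.81 with Ang II and 3.96 to 4.35 with a median of 4.16 with Hyd/HCTZ, with no overlap. Its deposited difference was -0.48 and the relative one -0.79 (SE 0.16; adjusted p 0.000235). Rab40c, which joins a ubiquitin ligase complex, measured 4.86, 5.45, 5.17 and 5.75 and 4.65 to 5.18 with a median of 4.99, with overlap, and its relative difference was -0.62 or lower with 5 in place of the Hyd/HCTZ mean (adjusted p 0.00117). Rab44, like Rab9b, averaged below 5 in both groups, so the size of either fall is uncertain. The Hyd/HCTZ arrays had a wider spread of values (mean interquartile range 3.26 against 2.53 to 2.72 in the other groups). The call of Rab44 was lost under quantile normalization (adjusted p 0.0660). It was also lost without a filter (-0.32, adjusted p 0.117) and against genes of like level (-0.24, adjusted p 0.241). Rab40c lost its call against 0 (adjusted p 0.0730) and without a filter (-0.18, adjusted p 0.371). Rab28 was not called, at 0.08, with an Ang II mean of 4.70, below 5.

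The values of 3 Rab genes are uncertain because of where their probe sets lie. The array numbers its probe sets in chromosome order, and 10 named probe sets on either side were looked up for each. The kept probe sets of Rab5b, Rab11b and Rab2a lay among 20 of 20 neighbours on chromosomes 2, 19 and 5, while RefSeq places the genes on chromosomes 10, 17 and 4. Each had a second probe set among those of its own chromosome, and which locus the kept probe sets measure was not tested. The second probe set of Rab5b read 5.19, 4.75, 5.54 and 5.83 with Ang II and 6.09 to 7.11 with Hyd/HCTZ, a relative difference of 1.19 (SE 0.25; adjusted p 0.000333). That of Rab11b read 3.65, 3.87, 3.99 and 5.03 and 5.62 to 6.30, and it too was called (adjusted p 2.90e-05). That of Rab2a gave 0.51 and was not called (adjusted p 0.134). With these probe sets 19 of 41 Rab genes were called, 16 higher and 3 lower, beside 48.6% of all tested genes called.

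Promoter sequences are shown for the 4 genes with the largest rises whose promoters the RefSeq table (GRCm38.p6) held. They were chosen by the size of the rise, and shared regulation was not tested. Of the 41 tested genes 34 matched the table, and Rab7b was not among them. Each line gives 250 bases before to 50 after the annotated start, 5′ to 3′ on the gene's strand, which is the minus strand for all 4. Capitals mark matches of 7 motifs: the CACGTG box of the TFEB and MITF family, the CATGTG M-box core, the PU.1 site GAGGAAGT, the AP-1 site TGANTCA, the cAMP response element TGACGTCA, the antioxidant response element TGACNNNGC and the core of the interferon-stimulated response element, searched on both strands.
Rab32, chr10:10558158-10558457: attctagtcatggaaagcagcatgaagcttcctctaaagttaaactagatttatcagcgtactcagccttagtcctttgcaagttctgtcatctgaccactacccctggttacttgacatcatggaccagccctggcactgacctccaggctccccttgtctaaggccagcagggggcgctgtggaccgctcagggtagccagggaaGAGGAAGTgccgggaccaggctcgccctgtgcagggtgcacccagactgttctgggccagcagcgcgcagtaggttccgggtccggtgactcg
Rab11a, chr9:64737707-64738006: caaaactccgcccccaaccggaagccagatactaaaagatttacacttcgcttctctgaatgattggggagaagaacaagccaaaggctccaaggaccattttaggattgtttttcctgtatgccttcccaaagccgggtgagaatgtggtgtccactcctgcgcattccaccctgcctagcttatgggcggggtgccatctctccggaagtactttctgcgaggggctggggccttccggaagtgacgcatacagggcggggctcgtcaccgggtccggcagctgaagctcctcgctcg
Rab43, chr6:87812115-87812414: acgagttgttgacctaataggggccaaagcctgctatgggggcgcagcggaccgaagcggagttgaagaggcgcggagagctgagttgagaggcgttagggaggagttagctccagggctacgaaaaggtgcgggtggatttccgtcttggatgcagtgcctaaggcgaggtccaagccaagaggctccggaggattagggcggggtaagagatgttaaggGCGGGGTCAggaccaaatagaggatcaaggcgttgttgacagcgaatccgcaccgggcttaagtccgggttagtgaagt
Rab5b, chr10:128696219-128696518: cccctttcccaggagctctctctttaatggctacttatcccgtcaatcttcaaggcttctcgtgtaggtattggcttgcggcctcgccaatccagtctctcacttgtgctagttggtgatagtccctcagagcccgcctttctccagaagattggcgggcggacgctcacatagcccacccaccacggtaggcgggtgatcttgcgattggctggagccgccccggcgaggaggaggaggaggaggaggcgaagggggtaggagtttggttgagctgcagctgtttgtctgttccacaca

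The Rab32 promoter held the PU.1 letters, 43 bases before the start, which 3.20% of the 32851 promoters of the table hold. The Rab43 window, at the first of 4 listed starts, held the antioxidant response letters 29 bases before it, as 12.4% of promoters do. Rab11a and Rab5b held none of the 7 motifs. The PU.1 letters stood in 1 of the 14 higher Rab genes with a promoter and in 1 of the 20 other tested Rab genes, and the antioxidant response letters in 3 of each. CACGTG stood in 2 of the 14, Rab20 and Rab24, in 2 of the 20 and in 7.15% of all promoters. GGGCGG (the GC box, not capitalised) stood in 9 of 14 and 17 of 20, against 35.7% of all promoters, and CCAAT in 8 of 14 and 11 of 20, against 37.4%. These matches are descriptions of letters in the windows.

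In the RefSeq table Rab43 and Rab7 lie on chromosome 6 with 6 coding genes between them; Rab43 rose and Rab7 was not called. Rab7b and Rab29 lie on chromosome 1 with 3 coding genes between them, and both were called higher.

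Paralogues were set against each other within each array, which removes any shift common to both genes. A shift that depends on level is not removed where the genes of a pair differ in level. The difference of first minus second gene was compared between the 6 Hyd/HCTZ and 4 Ang II arrays by a two-sided exact permutation test of 210 orders, whose smallest p is 0.00476. The 12 pairs were those tested genes that share a number, with Rab32 and Rab38 and with Rab22a and Rab31; they were set up after the data were seen. Of these, 5 had an adjusted p (Benjamini-Hochberg over the 12) below 0.05. Rab7 minus Rab7b fell by 2.33 (SD 0.21 over the Hyd/HCTZ and 0.23 over the Ang II arrays; exact p 0.00476, adjusted 0.0190). Rab32 minus Rab38 rose by 1.14 (SD 0.19 and 0.26; exact p 0.00476, adjusted 0.0190), with Rab38 near 5 on the Ang II arrays, so that the size of its own rise is uncertain. Rab5a minus Rab5b fell by 1.33 (exact p 0.00476, adjusted 0.0190), and by 1.07 with the second Rab5b probe set (exact p 0.00476). These 3 pairs had no overlap between the groups. The median shift of genes of like level was 0.50 for Rab32 and 0.12 for Rab38. It was 0.63 for Rab7 and 0.45 for Rab7b, and 0.44 for Rab5a and 0.36 for Rab5b.

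In 2 further pairs the groups overlapped. Rab9 minus Rab9b rose by 0.91 (exact p 0.00952, adjusted 0.0286) and Rab6a minus Rab6b by 0.90 (exact p 0.0143, adjusted 0.0343). The median shift of genes of like level was 0.41 for Rab9 and -0.19 for Rab9b, which averaged below 5 in both groups. Against these genes Rab9 differed by -0.10 (limma adjusted p 0.674) and Rab9b by -0.40 (0.147), and neither was called. For Rab6a and Rab6b the like-level shifts were 0.42 and 0.18. Whether the pairs differ beyond such shifts was not tested. Rab11a minus Rab11b rose by 0.56 (exact p 0.0429, adjusted 0.0735), and by 0.09 with the second Rab11b probe set (exact p 0.786). Rab1a against Rab1b (0.09; exact p 0.695) and Rab22a against Rab31 (-0.08; exact p 0.686) showed the smallest differences of the 12.

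**Figure D4:**
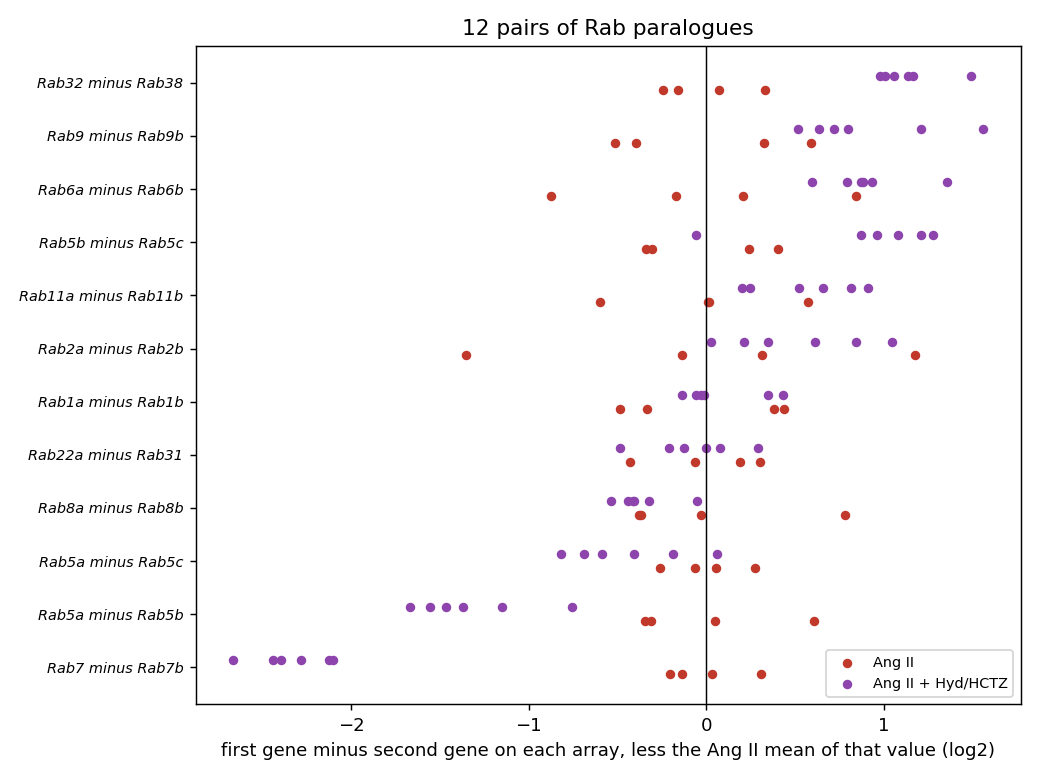
First minus second gene of 12 paralogue pairs on each Ang II (red) and Ang II with Hyd/HCTZ (purple) array, less the Ang II mean of that value (x axis, log2); points are arrays. The 2 colours do not overlap for Rab7 and Rab7b, Rab5a and Rab5b, and Rab32 and Rab38.

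Set against Ang II with 2-HOBA instead, which uses the same 6 Hyd/HCTZ arrays and so is not a second experiment, Hyd/HCTZ had 14 Rab genes higher and 1 lower of 41. Of all tested genes 44.3% were called, 23.2% higher and 21.1% lower, so the Rab share in either direction, 36.6%, was below that of the table, and the higher share was 34.1%. Without the correction for the median 21 of 41 Rab genes and 45.7% of all genes were called. The 2-HOBA arrays measured 5.89, 5.51, 5.47 and 5.13 for Rab7b, 5.75, 5.03, 6.14 and 5.91 for Rab32 and 7.19, 6.79, 6.98 and 6.23 for Rab43. Relative differences from them were 2.22 (SE 0.20; adjusted p 3.85e-09) for Rab7b, 2.21 (SE 0.22; adjusted p 1.67e-08) for Rab32 and 1.53 (SE 0.24; adjusted p 9.13e-06) for Rab43. Rab38 was at least 0.99 higher (adjusted p 1.96e-05), Rab29 1.09 (adjusted p 0.000793), Rab5b 1.03 (adjusted p 0.0142) and Rab11a 1.02 (adjusted p 0.000681). With the second probe set Rab11b was not called here (adjusted p 0.0710). Rab44 was the 1 gene lower, at -0.69 (adjusted p 0.00108); it lost the call under quantile normalization (-0.34; adjusted p 0.108), without a filter (-0.31; 0.153) and against genes of like level (-0.28; 0.168). Rab1a, Rab2a, Rab6a, Rab9b and Rab40c, called against Ang II, had adjusted p-values of 0.0533, 0.161, 0.148, 0.0852 and 0.0808 against 2-HOBA.

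The proteins that load, unload and read Rabs were taken from 4 lists with 94 tested genes. Against Ang II, 37 of 94 were called with Hyd/HCTZ, 13 higher and 24 lower, or 39.4% beside the same 48.6% of all genes, with a median relative difference of -0.12. Chaperones and prenylation genes had 3 of 7 higher and 0 lower, exchange factors 3 higher and 10 lower of 29, GTPase-activating proteins 4 higher and 7 lower of 28, and effectors 3 higher and 7 lower of 30. The 4 smallest p-values belonged to Dennd5b, Tbc1d10c, Rabac1 and Tbc1d8. Dennd5b, a DENN-domain gene, differed by -1.52 (SE 0.21; adjusted p 2.00e-06), from 5.26 ± 0.21 (SD, n = 4) to 4.06 ± 0.33 (SD, n = 6); the Hyd/HCTZ mean lies below 5, so the size of the fall is uncertain. Tbc1d10c, a TBC-domain gene of lymphocytes, differed by -1.09 (SE 0.18; adjusted p 1.67e-05), from 7.75 ± 0.24 (SD, n = 4) to 6.98 ± 0.16 (SD, n = 6). Rabac1, a receptor of prenylated Rabs, differed by 0.97 (SE 0.17; adjusted p 3.27e-05), from 6.86 ± 0.31 (SD, n = 4) to 8.15 ± 0.25 (SD, n = 6). Tbc1d8 differed by 1.07 (SE 0.19; adjusted p 5.09e-05), from 7.39 ± 0.20 (SD, n = 4) to 8.78 ± 0.08 (SD, n = 6). In the other 6 comparisons limma called 0 of the 94, with 2 to 8 at an unadjusted p under 0.05. Against 2-HOBA 28 of 94 were called, or 29.8% beside 44.3% of all tested genes, 10 higher and 18 lower, with the smallest p-values in Dennd5b, Tbc1d10c, Rin2 and Tbc1d8; Rin2, an exchange factor of Rab5, was 1.503 higher (SE 0.22; adjusted p 5.01e-06).

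Ang II itself was compared with vehicle in wild-type cells, and 0 of 41 Rab genes were called, beside 0% of all genes; 2 Rab genes and 266 of all genes had an unadjusted limma p under 0.05. The smallest p-values were those of Rab20, Rab11a and Rab31. Rab20 measured 4.59, 4.83, 4.64 and 4.94 with Ang II and 4.89 to 5.51 with a median of 5.23 with vehicle, a difference of -0.45 (SE 0.19; unadjusted limma p 0.0231, adjusted p 1.00), or -0.20 with 5 in place of the Ang II mean, and -0.40 without the array labelled vehicle replicate 2. Rab11a measured 5.88 to 7.03 with a median of 6.71 with vehicle and differed by -0.48 (SE 0.22; adjusted p 1.00). Within array set 1 that difference was -0.63 and within set 2 -0.24, and without the array labelled vehicle replicate 2 it was -0.45. Rab31 differed by -0.33 (SE 0.17; adjusted p 1.00), and by -0.34 with that array left out. The second Rab11b probe set, among those of its own chromosome, differed by -0.59 (SE 0.24) and was not called. Both its means lay below 5 (4.13 with Ang II and 4.73 with vehicle), so that size is uncertain. It was not refitted without the array labelled vehicle replicate 2. With the kept probe sets, all 41 intervals lay within a difference of 1 in either direction.

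Adding 2-HOBA to Ang II left 0 of 41 Rab genes called, beside 0% of all genes, with 1 Rab gene and 379 of all genes at an unadjusted limma p under 0.05. That gene was Rab11a, which measured 6.49, 6.69, 7.05 and 6.45 with 2-HOBA and differed by 0.58 (SE 0.25; adjusted p 0.977). Blocking on array set gave a difference of 0.24. Next came Rab39 at 0.34 and Rab9b at -0.37, both with adjusted p-values of at least 0.977. The second Rab11b probe set differed by 0.96 (SE 0.27, adjusted p 0.977) and was not called. Its Ang II mean was 4.13, below 5, so that size is uncertain. Of the 41 intervals of the kept probe sets, 37 lay within 1 in either direction.

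In NOX2 knockout cells Ang II gave 0 called Rab genes of 41, beside 0% of all genes, with 1 Rab gene and 296 of all genes at an unadjusted limma p under 0.05. Rab44 differed by 0.40 (SE 0.19; adjusted p 1.00), or 0.11 with 5 in place of the vehicle mean, Rab5a by -0.35 (SE 0.19) and Rab31 by 0.28 (SE 0.21). All 41 intervals lay within 1.

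Knockout and wild-type cells were compared under vehicle and under Ang II. Under vehicle 0 of 41 Rab genes were called, beside 0.00957% of all genes, which is 1 gene, and 2 Rab genes and 657 of all genes had an unadjusted limma p under 0.05. Rab8a measured 8.48, 8.33 and 8.20 in the knockout and 8.17 to 9.18 with a median of 9.02 in the wild type, a difference of -0.46 (SE 0.18; adjusted p 0.708). Rab10 measured 8.49, 8.12 and 7.97 and 8.03 to 9.08 with a median of 8.71, a difference of -0.43 (SE 0.20; adjusted p 0.767). Both were highest on vehicle replicates 4 to 7, which share no array set with the knockout. Without the array labelled vehicle replicate 2 the differences were -0.57 (adjusted p 0.0822) and -0.53 (adjusted p 0.135). Within array set 1 the differences were -0.07 and -0.05, and without the array labelled vehicle replicate 2 in that set -0.19 and -0.16. Limma's array weights, which gave the array labelled vehicle replicate 2 a weight of 0.0617, called 5 Rab genes lower in the knockout, namely Rab8a (-0.69; adjusted p 0.00411), Rab10, Rab14, Rab1a and Rab18; the same fit called 13.7% of all tested genes, 11.9% lower. Rab30, the third by p, differed by -0.61 (SE 0.34; adjusted p 0.851). Without the array labelled vehicle replicate 2 it differed by -0.81 (adjusted p 0.176); within array set 1 by -0.40, and in that set without that array by -0.87 (adjusted p 0.199).

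Under Ang II 0 of 41 Rab genes were called between knockout and wild type, beside 0.0478% of all genes, which is 5 genes, and 3 Rab genes and 714 of all genes had an unadjusted limma p under 0.05. Rab5a measured 5.81, 5.82, 5.96 and 5.67 in the knockout and 6.08, 6.47, 6.44 and 6.69 in the wild type. The 4 knockout values lay below the 4 wild-type values, and the difference was -0.60 (SE 0.17; unadjusted limma p 0.00151, adjusted p 0.268). Within array set 1, which holds 2 of the wild-type arrays, it was -0.46. Rab31 measured 5.46, 5.82, 6.21 and 5.98 and 5.45, 4.76, 5.15 and 5.69, a difference of 0.61 (SE 0.20; adjusted p 0.414), and 0.76 within array set 1. Rab44 measured 5.11, 4.89, 5.15 and 5.29 and 4.63, 4.59, 4.58 and 4.81, without overlap, a difference of 0.46 (SE 0.18; adjusted p 0.521), or 0.11 with 5 in place of the wild-type mean. The effect of Ang II in the knockout minus that in the wild type was called for 0 of 41 Rab genes and 0% of all genes, with 1 Rab gene and 257 of all genes at an unadjusted limma p under 0.05. It was 0.61 (SE 0.27) for Rab31, -0.45 (SE 0.24) for Rab5a and 0.45 (SE 0.25) for Rab44, each with an adjusted p of 1.00. Leaving out the array labelled wild-type vehicle 2 gave 0.62, -0.40 and 0.46 in the same order.

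**Figure D5:**
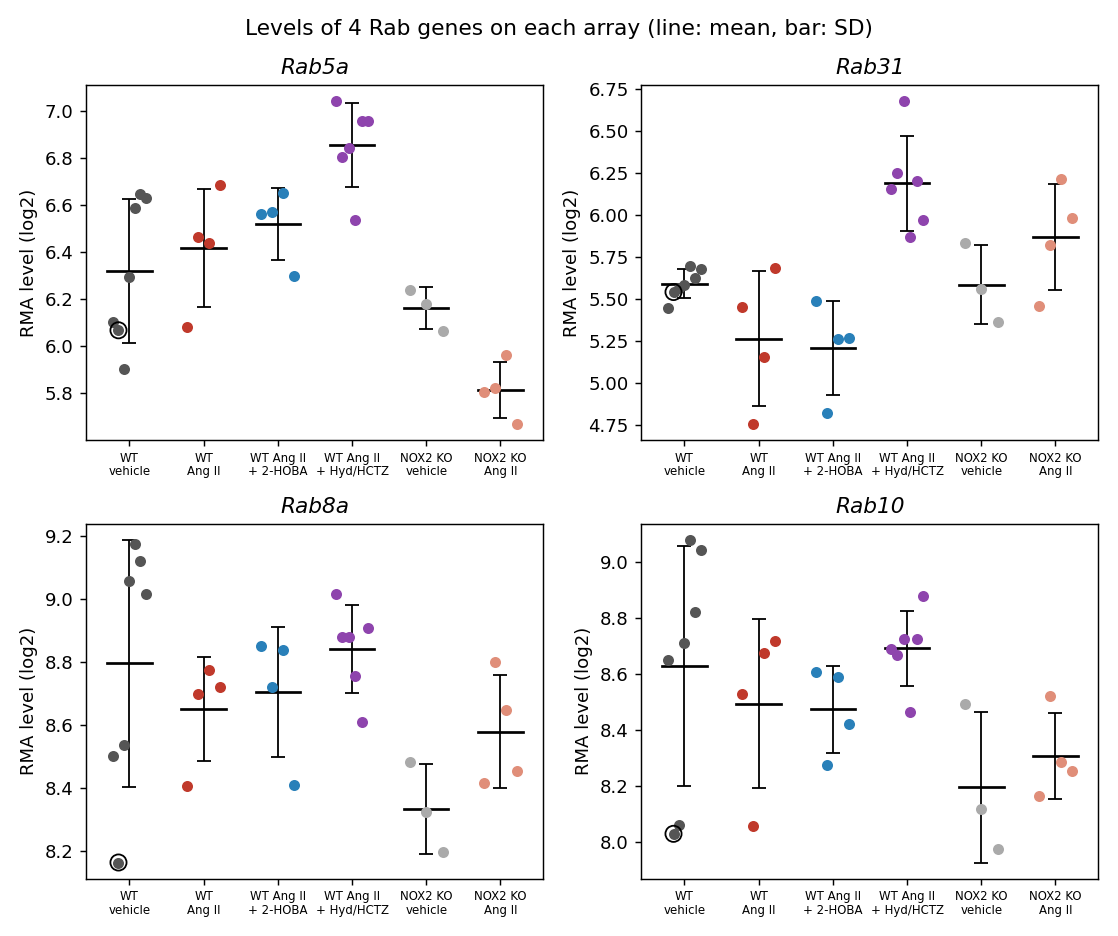
RMA level (y axis, log2) of Rab5a, Rab31, Rab8a and Rab10 on each array by group; points are arrays, the line is the group mean, the bar its SD, and the ring marks wild-type vehicle replicate 2. The 4 knockout Ang II arrays lie below the 4 wild-type Ang II arrays for Rab5a, and vehicle values of Rab8a and Rab10 spread widely.

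The other 18 Rab genes were above 5 on at most 1 array and were not tested. They were Rab3a, Rab3b, Rab3c, Rab3d, Rab13, Rab26 and Rab27b of the exocytic class, Rab4a, Rab15, Rab17 and Rab25 of the recycling class, Rab34, Rab39b and Rab42 of the late class, Rab33a of the Golgi, and Rab23, Rab36 and Rab40b. Only Rab3d and Rab13 exceeded 5, each on 1 array, at 5.52 and 5.02. Epithelial Rabs such as Rab25 and Rab17 and neuronal ones such as Rab3a were thus among those not above the filter, and a level below it says only that the probe set was dim.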

How the data were processed

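Per the labels' protocols, biotin-labelled cRNA from Trizol-extracted total RNA was hybridised to Affymetrix arrays, 1 per sample. The authors deposited 1 table of log2 levels for 35556 probe sets (0.90 to 14.34); RMA and Partek 6.6 are named in the submitters' processing notes, and other steps are not given in the sources used here. Of the probe sets, 21789 had 1 gene symbol. The members, the role lists, the regulator lists and the markers were chosen with earlier results of these data known. A linear model of 6 group means over all 28 arrays was fitted (limma 3.58.1, R 4.3.3), with plain empirical Bayes and Benjamini-Hochberg adjustment over 10452 genes above 5 on 3 or more arrays. Where the median tested gene differed by over 0.1 between groups, differences were tested against that median (Hyd/HCTZ against Ang II, 0.32, and against 2-HOBA, 0.25). Where 1 of 2 group means lay below 5, a bound with 5 in its place is given for Rab20, Rab38, Rab40c and Rab44. Other differences, such as those of Rab2b, Rab28, Dennd5b and the second Rab11b probe set, are given as measured. So are those where both means lay below 5. No pseudocount was needed, and arrays give no count depth, so their number limits the precision.

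Arrays sharing a replicate number did not deviate together (10 of 57 pair correlations over 0.1), so numbers were not used as pairs. Named genes were at most the 8 largest rises and falls called in a comparison, a list of well-known Rabs whatever their result, the 3 smallest p-values where none was called, and up to 4 called regulators. The fit was tested on simulated data. Alternatives were another filter, probe set, normalization, reference, variance model, weighting or set of arrays, each replicate left out, the replicate number as a block and the array set as a block. Promoters came from RefSeq (GRCm38.p6); the array's build is not given in the sources used here.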

Additional observations from a re-analysis of the deposited data

Results flagged for a closer look

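Of 205 gene and group cases with 4 to 10 arrays, 16 had 1 array far from the rest of its group by Dixon's test, which chance does in about 1 case in 20. The array labelled wild-type vehicle replicate 2 gave 7 of these. On it Rab12 was high, at 6.02 against 4.93 to 5.35 on the other 6 vehicle arrays. Low values on the same array were Rab14 at 6.97 (others 7.82 to 8.34), Rab1b at 5.00 (6.27 to 6.62), Rab24 at 6.55 (7.10 to 7.41), Rab27a at 4.24 (5.74 to 6.57), Rab4b at 5.91 (6.76 to 7.07) and Rab5b at 3.63 (5.16 to 6.33).

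Hyd/HCTZ replicate 4 was low in 4 genes: Rab18 at 5.40 (others 6.12 to 6.54), Rab5b at 6.12 (6.93 to 7.33), Rab7 at 8.60 (8.95 to 9.05) and Rab8b at 8.70 (9.03 to 9.23). Rab6b stood low on 1 array in each of 3 groups, at 5.02 on knockout Ang II replicate 1, 4.63 on wild-type vehicle replicate 4 and 4.90 on Hyd/HCTZ replicate 5. Knockout Ang II replicate 1 was also low in Rab33b, at 4.81, and wild-type Ang II replicate 1 in Rab24, at 6.91.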

How the results depend on the processing

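Rab calls for Hyd/HCTZ against Ang II (20 in the report) and against 2-HOBA (15) moved most with the filter. Without a filter 29 of 59 were called, all higher, and 26 against 2-HOBA. With a level above 7 required, 8 and 4 were called, and 13 by the F test over the 6 groups. The median reference moved with the filter. Against Ang II, Rab40c went from -0.65 to -0.18 without a filter, and Rab24 from 0.46 to 0.14 with a level above 7. Shares of all genes called with these filters, under quantile normalization, with a replicate left out or with the replicate block are not given here. Nor is the number of Rab genes above 7, so these counts are no result about Rab genes. Quantile normalization gave 20 (16 higher, 4 lower) and 13. Against the Ang II arrays of the second array set alone 13 were called. Array weights called 5 in knockout against wild type under vehicle, where every other setting run called 0. Leaving out 1 replicate gave 17 to 21 against Ang II, 13 to 15 against 2-HOBA, 20 to 29 by the F test (29 when the array labelled wild-type vehicle 2 was left out), and 0 in the other 6 comparisons. With the replicate number as a block, 19, 15 and 23 (F test) were called, and 0 in the other 6. The array set could not be fitted as a block for Hyd/HCTZ or the F test. Over single genes, 1153 of 1214 settings kept direction and call, 58 lost the call, 2 gained it and 1 reversed, which was Rab9b with 2-HOBA against Ang II, 0.043 when blocking on array set (the cause was not tested). Of the 20 genes called against Ang II, Rab7b, Rab32, Rab43, Rab11a, Rab11b, Rab20, Rab22a and Rab38 kept the call in each setting in which they were tested, the other 12 lost it in at least 1, and 0 changed sign.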
